A study of Homo sapiens with 14 samples.

Results

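The genes described here were 9 genes of growth and survival signalling: the serine/threonine kinases PIM1, PIM2 and PIM3, the RAS-RAF genes NRAS and BRAF, the growth factor receptor genes FGFR3 and IGF1R, and the feedback inhibitor genes DUSP6 and SPRY2. They were followed through accessible chromatin regions (peaks) in the gene body and the 50 kb on each side of it, here called the window of the gene. These windows held 88 of the 72802 peaks of MM.1S and 78 of the 79969 peaks of RPMI8226. Both are established human multiple myeloma (MM) cell lines, and each line had 1 peak list.

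Chromatin accessibility was measured by Omni-ATAC, which cuts open chromatin with a transposase and tags the cut ends for sequencing, to ask how bone marrow stroma changes the regulatory regions of MM cells. MM cells were grown alone (MONO), in the upper transwell above HS5 cells and separated from them by a membrane (TSW), or in the lower chamber in contact with HS5 cells (CO). HS5 is a human bone marrow stromal cell line, and it was the only stromal source, so that the coculture models 1 line of stroma. MM.1S had 9 libraries (3 MONO, 3 TSW and 3 CO) and RPMI8226 had 5 (1 MONO, 2 TSW and 2 CO), 14 in all. Each list pools the conditions of its line. Neither list gives read counts or values by library, so the conditions could not be compared and no test was run. Read totals of the libraries are in the supplement of the study and were not used here, and no depth can be read from the lists. The whole number given with each peak ran from 3 to 9 in MM.1S and from 3 to 5 in RPMI8226. It was read as support, the number of libraries of the line in which the peak was called, with a minimum of 3. In a bulk sample, a region that is open in fewer cells and a region that is less open in each cell cannot be told apart.

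PIM kinases are constitutively active once made, so that their amount is set largely by transcription, often downstream of cytokine receptors and STAT factors, and by protein turnover. They phosphorylate regulators of apoptosis and translation, and PIM2 is known for its high expression in MM. Receptor tyrosine kinases such as FGFR3 and IGF1R signal through RAS and RAF to the ERK kinases, and ERK in turn induces the inhibitors DUSP6 and SPRY2. NRAS and BRAF are recurrently mutated in MM, and FGFR3 is brought under immunoglobulin enhancers by a translocation in a subset of cases.

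The labelled cell type was checked at promoters, taken as any stretch within 2500 bp of an annotated transcription start. Of 6 plasma cell genes (SDC1, CD38, PRDM1, XBP1, IRF4 and TNFRSF17), 6 had a promoter peak in every library of each line. So did 69.3% of protein-coding genes in MM.1S and 66.6% in RPMI8226. Among 8 genes of stromal cells, each list showed an open promoter for 5, against 76.8% of protein-coding genes in MM.1S and 71.9% in RPMI8226. For 3 of them, COL1A1, PDGFRB and FN1, it was called in every library of each line. COL1A2 (6 MM.1S and 3 RPMI8226 libraries) and DCN (8 and 4) had one in fewer. THY1 (CD90), COL3A1 and LUM had none in either list. By the study's methods, MM cells were sorted as CD90- CD38+, a gate that removes CD90+ HS5 cells, and a small share of HS5 cells was still seen in the sorted lower chamber cells. Its part in the results for the 9 genes was not tested.

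All 9 genes had a peak at their own promoter that was called in every MM.1S library. In RPMI8226, 7 of the 9 did, again in every library, and the exceptions were FGFR3 and SPRY2. Among 20007 protein-coding genes, 76.8% had a peak at their own promoter in MM.1S and 71.9% in RPMI8226, and 69.3% and 66.6% had one in every library of the line. A promoter peak in the MM.1S list alone, the state of FGFR3 and SPRY2, was found for 8.19% of the protein-coding genes, against 3.21% for RPMI8226 alone. A peak entered the MM.1S list with 3 of 9 libraries and the RPMI8226 list with 3 of 5, so the lists set unequal requirements. The part of this in these shares, and in all sharing and line-only counts below, was not tested.

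**Figure D1:**
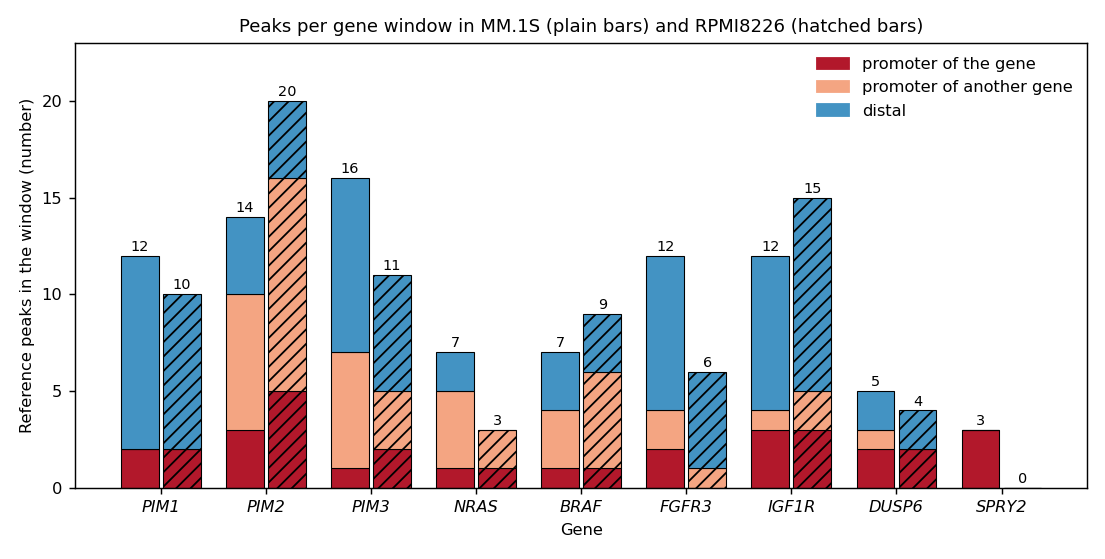
Number of reference peaks in the window of each gene, in MM.1S (plain bars) and RPMI8226 (hatched bars), split into peaks at the promoter of the gene, at the promoter of another gene and distal peaks. The PIM2 window held the most peaks in RPMI8226 (20) and the PIM3 window the most in MM.1S (16), and the SPRY2 window held 3 and 0.

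The PIM kinase windows were the most densely occupied of the 9. Together the 3 windows held 13.4 peaks per 100 kb in MM.1S and 13.0 in RPMI8226. Of their 42 and 41 peaks, 13 and 14 lay at promoters of other genes. FGFR3 came next, with 10.4 peaks per 100 kb in MM.1S (percentile 91.6 of protein-coding genes) and 5.19 in RPMI8226 (percentile 58.0). The median protein-coding gene, with its window drawn the same way, had 4.23 peaks per 100 kb in MM.1S (quartiles 2.28 and 6.99) and 4.42 in RPMI8226 (quartiles 2.30 and 7.27). By density, PIM1 ranked at percentile 94.5 of protein-coding genes in MM.1S and 87.4 in RPMI8226, PIM2 at 97.7 and 99.9, and PIM3 at 99.4 and 91.8.

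PIM1 lies at chr6:37170152-37175428 on the plus strand (hg38). Its window held 12 MM.1S peaks (10 distal) and 10 RPMI8226 peaks (8 distal). The promoter peak spanned the start site at chr6:37169487-37170856 in MM.1S (1370 bp, 9 libraries) and at chr6:37169456-37170872 in RPMI8226 (1417 bp, 5 libraries), so that its extent was nearly the same in both lines. A smaller intronic peak, 2.168 kb past the start site, was called in 9 MM.1S libraries and 4 RPMI8226 libraries. Of the distal peaks, 7 of 10 in MM.1S and 7 of 8 in RPMI8226 were shared, meaning that at least 1 bp lay in a peak called in the other line. The most strongly supported line-only peak stood just past the 3' end of the gene at chr6:37175791-37176323 and was called in 9 of 9 MM.1S libraries. The only PIM1 peak in the RPMI8226 list alone, at chr6:37204440-37204751, was called in 4 of 5 libraries.

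A shared intergenic peak 38 kb downstream of the PIM1 start site was called in every library of both lines, as 585 bp in MM.1S (chr6:37207876-37208460) and as 258 bp in RPMI8226 (chr6:37208074-37208331). Its centre is shown because it holds TGACTCA, a site of the AP-1 factors, one of the 3 motifs that the study names for regions gaining accessibility with stroma. The 200 bp at the centre of the MM.1S peak, chr6:37208068-37208267 on the plus strand of hg38, read as follows with the AP-1 match in capitals.
PIM1 downstream peak: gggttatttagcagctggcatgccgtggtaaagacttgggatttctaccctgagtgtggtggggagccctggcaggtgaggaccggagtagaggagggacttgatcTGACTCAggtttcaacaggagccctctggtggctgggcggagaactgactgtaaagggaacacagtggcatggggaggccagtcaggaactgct

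PIM2 lies at chrX:48913182-48919024 on the minus strand, between SLC35A2 and OTUD5, in the most gene-rich of the 9 windows, with 5 other protein-coding genes. Its window held 14 MM.1S and 20 RPMI8226 peaks, the latter at percentile 97.9 of protein-coding genes by count. Promoters accounted for 10 of the 14 and 16 of the 20, and most of these, 7 and 11, belonged to neighbouring genes rather than to PIM2. The start site lay in an MM.1S peak of 999 bp at chrX:48918816-48919814 (9 libraries). In RPMI8226 the same stretch was divided into a peak of 610 bp at chrX:48918870-48919479 and a peak of 318 bp at chrX:48919508-48919825, each called in 5 of 5 libraries, which adds 1 to the RPMI8226 count. A further RPMI8226 peak upstream, at chrX:48920005-48920261, was called in 4 libraries and had no counterpart in MM.1S. An intronic PIM2 peak was called in 7 of 9 MM.1S libraries and in 5 of 5 RPMI8226 libraries. The widest peak of the window, 2116 bp in MM.1S at chrX:48910940-48913055, overlapped a UTR of SLC35A2 and had its midpoint between that gene and the 3' end of PIM2. It counted for both genes, for PIM2 through an annotated start site of a further transcript.

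PIM3 lies at chr22:49960768-49964072 on the plus strand. Its window held 16 MM.1S and 11 RPMI8226 peaks, at percentiles 95.6 and 78.6 by count. Of these, 6 and 3 lay at promoters of other genes, against 1 and 2 at the promoter of PIM3. The promoter peak was 1082 bp wide in MM.1S (chr22:49959695-49960776, 9 libraries) and 932 bp in RPMI8226 (chr22:49959681-49960612, 5 libraries). An intronic peak within the promoter range, at chr22:49962329-49962785, was listed for RPMI8226 alone with 4 libraries. All 6 distal RPMI8226 peaks were shared, whereas 6 of the 9 distal MM.1S peaks were. The 3 distal peaks listed for MM.1S alone were called in 6, 7 and 8 libraries, none of them in all 9.

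The widest distal peak among the 9 windows lay 10.5 kb downstream of the PIM3 start site and was nearly identical in the 2 lists, at chr22:49970582-49971929 in MM.1S (1348 bp, 9 libraries) and chr22:49970626-49971954 in RPMI8226 (1329 bp, 5 libraries). At about this distance downstream of PIM3, the study shows a putative enhancer as an example of its ATF::CEBP motif. The letters searched here for that motif (TGATGNAA, for pairs of ATF and CEBP factors) were not found in the peak. Consensus letters miss variants of a motif, so the study's match was not tested here. The whole peak held 2 AP-1 matches close together, both outside its central 200 bp. The stretch around them, chr22:49970819-49971018 on the plus strand of hg38, was chosen after the values were seen and shows both AP-1 matches in capitals.
PIM3 downstream peak: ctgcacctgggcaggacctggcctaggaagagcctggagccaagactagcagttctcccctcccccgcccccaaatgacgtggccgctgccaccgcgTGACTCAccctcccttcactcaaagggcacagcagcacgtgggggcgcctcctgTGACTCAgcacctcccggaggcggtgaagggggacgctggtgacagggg

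**Figure D2:**
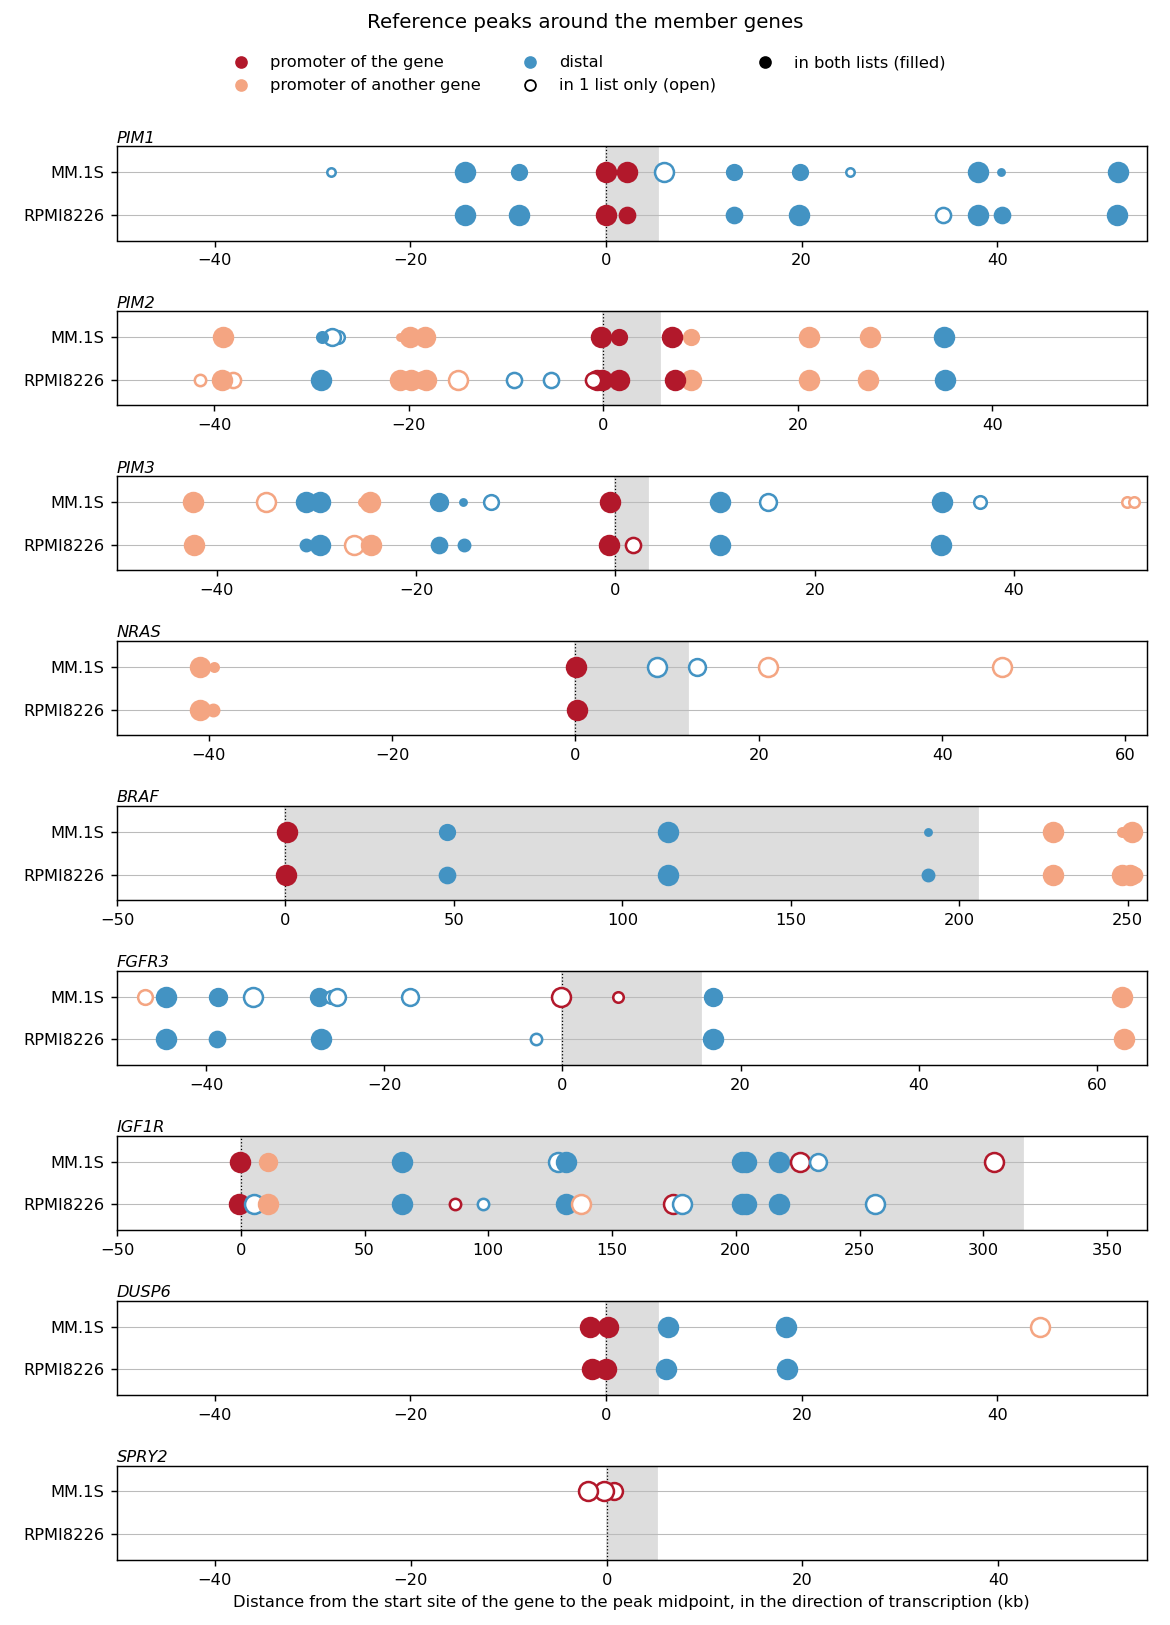
Position of each reference peak relative to the start site of the gene, in kb in the direction of transcription, for MM.1S (upper row) and RPMI8226 (lower row) of each gene, with the gene body in grey. Colour gives the class of the peak, filled circles are peaks in both lists, open circles are peaks in 1 list, and larger circles were called in a larger share of the libraries of the line. The SPRY2 row of RPMI8226 is empty, and the FGFR3 start site carries open MM.1S circles only.

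NRAS, a small GTPase that couples receptors to RAF, lies at chr1:114704469-114716771 on the minus strand. Its promoter peak was close to identical in the lists, at chr1:114716159-114717145 in MM.1S (987 bp, 9 libraries) and chr1:114716150-114717145 in RPMI8226 (996 bp, 5 libraries). The window differed outside this promoter, with 7 MM.1S peaks against 3 RPMI8226 peaks. All 3 RPMI8226 peaks were shared. The 4 peaks of MM.1S alone were called in 9, 9, 9 and 8 of 9 libraries and lay at the promoters of DENND2C and AMPD1, past the 3' end of NRAS and at a UTR of NRAS. On that side of the gene, the nearest RPMI8226 peak was 122 kb from the gene.

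BRAF, the kinase that RAS activates, spans 206 kb at chr7:140719327-140924929 on the minus strand. Its window held 7 MM.1S and 9 RPMI8226 peaks, a low density (2.29 and 2.95 per 100 kb, percentiles 25.2 and 33.6). Every MM.1S peak was shared, as were 8 of the 9 RPMI8226 peaks, and the exception lay at the promoters of ADCK2 and DENND2A with 3 of 5 libraries. The promoter peak measured 1506 bp in MM.1S (chr7:140923787-140925292, 9 libraries) and 1210 bp in RPMI8226 (chr7:140924081-140925290, 5 libraries). Within the gene body, 3 distal peaks were listed in each line. In each list, 1 of these was called in every library.

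FGFR3, a receptor for fibroblast growth factors, lies at chr4:1793293-1808872 on the plus strand. Its start site was covered in MM.1S alone, by a peak of 1065 bp at chr4:1792653-1793717 that was called in 9 of 9 libraries and had a GC content of 79.0%. A further MM.1S peak at an alternative start site, chr4:1799264-1799744, was called in 5 libraries. In RPMI8226 no peak met the promoter definition. The nearest one, chr4:1790075-1790499, was called in 3 of 5 libraries, the minimum, and its midpoint lay 3.01 kb upstream of the start site, separated from the MM.1S promoter peak by 2.15 kb. With promoters drawn 5000 bp wide on either side, it counted as an FGFR3 promoter peak, and 8 of 9 genes had one in RPMI8226.

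Across the whole FGFR3 window there were 12 MM.1S and 6 RPMI8226 peaks. The lines shared the LETM1 promoter, 3 distal peaks upstream and 1 just past the 3' end of the gene. MM.1S alone had 4 distal peaks, all upstream, at 34.7, 26.0, 25.3 and 17.1 kb from the start site, called in 9, 6, 8 and 8 libraries. Over 1 Mb on each side of the gene the lists held 113 and 95 peaks. The 250 bases upstream of the FGFR3 start site (RefSeq, GRCh38.p14; chr4:1793043-1793292, plus strand) are shown because the MM.1S peak covered them and no RPMI8226 peak did. They held 86.8% GC and 40 CpG dinucleotides, against a median of 58% and 11 over 35116 RefSeq flanks of the same length, and no match to the 3 motifs, so that no letter is in capitals.
FGFR3 5' flank: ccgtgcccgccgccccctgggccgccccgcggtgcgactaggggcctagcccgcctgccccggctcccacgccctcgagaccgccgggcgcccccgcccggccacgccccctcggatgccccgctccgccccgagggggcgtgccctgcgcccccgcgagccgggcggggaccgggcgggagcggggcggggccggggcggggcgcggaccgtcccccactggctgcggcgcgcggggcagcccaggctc

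IGF1R, the receptor for insulin-like growth factor 1, spans 316 kb at chr15:98648539-98964530 on the plus strand. Its window held 12 MM.1S and 15 RPMI8226 peaks, high by count (percentiles 85.3 and 92.3) but not by density (2.88 and 3.61 per 100 kb, percentiles 33.7 and 41.0). The promoter peak was the widest of the 88, at 2344 bp in MM.1S (chr15:98647019-98649362, 9 libraries), and was 1731 bp in RPMI8226 (chr15:98647027-98648757, 5 libraries). The body of the gene carried different further peaks in the lists. MM.1S alone had intronic peaks at alternative start sites at chr15:98873501-98875083 (1583 bp) and chr15:98952111-98953361 (1251 bp), each in 9 of 9 libraries. RPMI8226 alone had 7 peaks in the gene, of 170 to 590 bp, of which 5 were called in every library. Among them were peaks near start sites of other IGF1R transcripts at chr15:98823176-98823474 (5 libraries) and chr15:98734855-98735024 (3 libraries).

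The lines shared 8 IGF1R peaks, 6 of them distal and intronic. A shared intronic peak 217 kb past the start site was called in every library of both lines and was 946 bp wide in MM.1S (chr15:98865379-98866324) against 354 bp in RPMI8226 (chr15:98865973-98866326). Its MM.1S centre, chr15:98865752-98865951 on the plus strand of hg38, held the only ATF::CEBP match found in the centre of a distal peak of these windows, shown in capitals. This stretch lay outside the narrower RPMI8226 peak, which held no ATF::CEBP match.
IGF1R intronic peak: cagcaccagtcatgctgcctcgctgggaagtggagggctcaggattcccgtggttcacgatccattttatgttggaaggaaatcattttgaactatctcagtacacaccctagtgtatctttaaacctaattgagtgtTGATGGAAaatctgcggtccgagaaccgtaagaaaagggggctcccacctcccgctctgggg

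DUSP6, the phosphatase that removes activating phosphates from ERK, lies at chr12:89347235-89352501 on the minus strand with no other protein-coding gene in its window. It had the most uniform support of the 9 genes, with all 5 MM.1S peaks called in 9 of 9 libraries and all 4 RPMI8226 peaks in 5 of 5. Each RPMI8226 peak was shared. A pair of peaks marked the promoter, at chr12:89351555-89352994 and chr12:89353463-89354749 in MM.1S and at chr12:89352193-89352891 and chr12:89353467-89354420 in RPMI8226. The former measured 1440 bp in MM.1S and 699 bp in RPMI8226, a ratio of 2.06. The shared distal peaks lay 6.33 and 18.4 kb past the start site, beyond the 3' end of the gene. The fifth MM.1S peak, at chr12:89307850-89308491, lay at the promoter of the noncoding gene LINC02458.

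SPRY2, a Sprouty protein that restrains signalling from receptors to RAS and ERK, lies at chr13:80335976-80341126 on the minus strand. MM.1S had 3 peaks in its window, all at the promoter, at chr13:80340006-80340804 (799 bp, 8 libraries), chr13:80341051-80341706 (656 bp, 9 libraries) and chr13:80342671-80343288 (618 bp, 9 libraries). RPMI8226 had none there. A promoter peak in every MM.1S library with an RPMI8226 window that held no peak was found for 95 of 20007 protein-coding genes (0.475%). No RPMI8226 peak lay within 100 kb of SPRY2. The nearest were 287 kb away on one side (chr13:80048862-80049154) and 113 kb away on the other (chr13:80454308-80454749), each in 5 of 5 libraries. Peaks were also fewer in RPMI8226 over 1 Mb on each side (14 against 22) and over 5 Mb (98 against 138), whereas chromosome 13 as a whole held 1702 RPMI8226 and 1407 MM.1S peaks. Absence from a list means that fewer than 3 libraries had a called peak, which is not a measure of closed chromatin.

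The 250 bases upstream of the SPRY2 start site (RefSeq, GRCh38.p14; chr13:80341127-80341376, minus strand) are shown as a stretch that carried a peak in MM.1S alone. They held 70.4% GC, 23 CpG dinucleotides and no match to the 3 motifs, so that no letter is in capitals. RefSeq also holds SPRY2 flanks within the gene, which are not printed. The flank at chr13:80340109-80340358 (62.4% GC) lay in the MM.1S peak of 8 libraries. The flank at chr13:80339660-80339909 (41.2% GC, 5 CpG dinucleotides) carried no peak in either list.
SPRY2 5' flank: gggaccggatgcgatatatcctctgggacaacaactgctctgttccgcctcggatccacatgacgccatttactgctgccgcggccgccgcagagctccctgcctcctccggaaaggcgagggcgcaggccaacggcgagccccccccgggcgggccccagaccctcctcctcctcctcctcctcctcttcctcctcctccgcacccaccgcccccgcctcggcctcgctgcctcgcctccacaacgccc

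Over the 9 windows, promoters made up 42 of 88 MM.1S peaks (47.7%, Wilson 95% interval 37.6 to 58.0) against 39.2% of the whole list. In RPMI8226 they made up 40 of 78 (51.3%, interval 40.4 to 62.1) against 36.0%. Of these, 24 in each list belonged to genes other than the 9, and every window was drawn around a gene. Intervals cover counting error over peaks only, and peaks are not replicates of a culture.

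Sharing between the lines was at the list level in MM.1S and above it in RPMI8226. In MM.1S, 57 of the 88 window peaks were shared (64.8%, interval 54.4 to 73.9) against 64.6% of the list. In RPMI8226, 60 of 78 were (76.9%, interval 66.4 to 84.9) against 62.0%. With at least 50% of each peak required to overlap, the RPMI8226 share was 64.1% (list 47.2%). Among peaks called in every MM.1S library, 38 of 51 were shared (74.5%; 81.3% of such peaks in the list), and no interval was computed for this share. Of the distal peaks, 30 of 38 were shared in RPMI8226 (78.9%, interval 63.7 to 88.9; list 53.7%) and 30 of 46 in MM.1S (65.2%, interval 50.8 to 77.3; list 60.0%). Of the promoter peaks, 30 of 40 were shared in RPMI8226 (75%, interval 59.8 to 85.8; list 76.6%) and 27 of 42 in MM.1S (64.3%, interval 49.2 to 77.0; list 71.8%). Both list shares lay inside these intervals. By role, the shared share in MM.1S was 71.4% for the PIM kinases and for NRAS with BRAF, 54.2% for the receptors and 50% for the feedback inhibitors. In RPMI8226 it was 78.0%, 91.7%, 61.9% and 100%, the last over 4 DUSP6 peaks. These values pool unlike genes. In MM.1S the share was 42.9% for NRAS and 100% for BRAF, 41.7% for FGFR3 and 66.7% for IGF1R, and 80% for DUSP6 and 0% for SPRY2.

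Of the window peaks, 51 of 88 were called in every MM.1S library (58.0%, interval 47.5 to 67.7; list 52.0%) and 54 of 78 in every RPMI8226 library (69.2%, interval 58.3 to 78.4; list 64.1%). Among peaks at least as wide as their list's median, the shares were close to those of the list, with 77.6% in MM.1S (list 78.6%) and 85.1% in RPMI8226 (list 86.1%). Among all shared window peaks, 38 of 57 were called in every library in MM.1S (66.7%; 65.4% of shared peaks in the list) and 47 of 60 in RPMI8226 (78.3%; list 76.7%). Among line-only peaks they were 13 of 31 (41.9%; 27.5% of line-only peaks in the list) and 7 of 18 (38.9%; list 43.6%). A peak of support 6 or less in MM.1S, or 4 or less in RPMI8226, could have been called without any MONO library. This held for 17 window peaks in MM.1S (19.3%; list 27.7%) and 24 in RPMI8226 (30.8%; list 35.9%). For the other window peaks, at least 1 MONO library must have had the peak, and these included a promoter peak of all 9 genes in MM.1S and of 7 in RPMI8226.

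**Figure D3:**
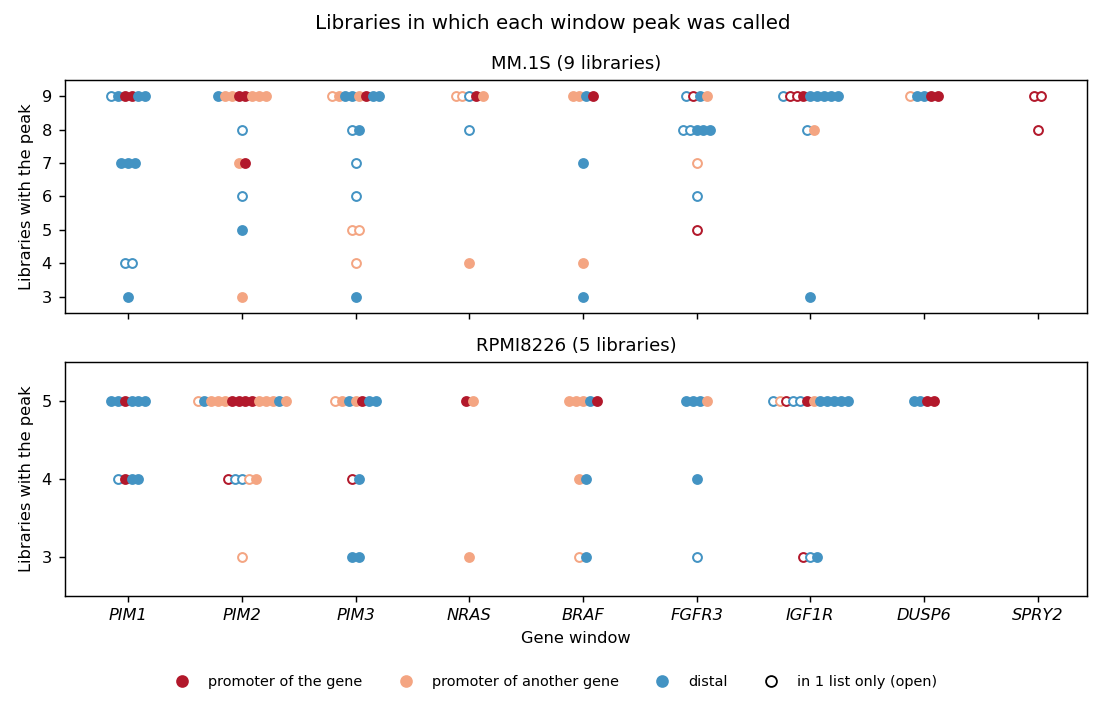
Number of libraries in which each window peak was called, by gene, for MM.1S (9 libraries) and RPMI8226 (5 libraries). Each circle is 1 peak, coloured by class, and open circles are peaks of 1 list only. Most peaks lie on the top row of their panel (51 of 88 and 54 of 78), and every DUSP6 peak does.

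Peaks that matched 1 to 1 between the lists allowed widths to be set side by side. Of 54 such pairs in the windows, MM.1S had the wider peak in 40 (74.1%; 81.6% of 44631 pairs in the lists), with medians of 664 and 500 bp. The pairs of largest ratio were a distal PIM3 peak 31 kb upstream (500 and 147 bp, ratio 3.40), the IGF1R intronic peak 217 kb past the start site (946 and 354 bp, ratio 2.67), another IGF1R intronic peak 65.0 kb past it (1111 and 465 bp, ratio 2.39) and the PIM1 downstream peak (585 and 258 bp, ratio 2.27). Start site peaks of PIM1 (ratio 0.967) and NRAS (ratio 0.991) had nearly equal widths. The lists come from 9 and 5 libraries, and the part of this in the widths was not tested.

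**Figure D4:**
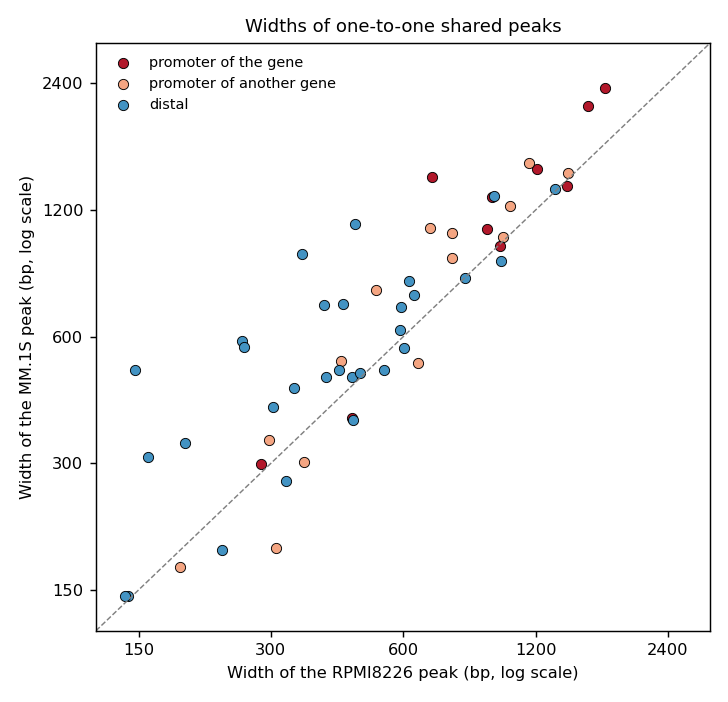
Width of each of the 54 peaks matched 1 to 1 between the lists, RPMI8226 on the horizontal and MM.1S on the vertical axis, in bp on log scales, coloured by class. The dashed line marks equal width, and 40 points lie above it.

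Motif letters were searched on both strands in the central 200 bp of distal peaks. AP-1 (TGACTCA, or TGAGTCA on the opposite strand) was found in 4 of 46 MM.1S peaks (8.70%; 9.17% of distal peaks in the list) and in 4 of 38 RPMI8226 peaks (10.5%; list 17.0%). The MM.1S matches lay in the windows of PIM1 (2 peaks), BRAF and FGFR3, and those of RPMI8226 in PIM1 (2 peaks), BRAF and IGF1R. ATF::CEBP (TGATGNAA) was found in 1 MM.1S peak, at IGF1R (2.17%; list 3.78%), and in 0 of 38 RPMI8226 peaks (list 4.02%). STAT3 (TTCCNGGAA) was found in 0 of 46 and 0 of 38 (lists 0.610% and 0.645%). Matches of different motifs did not overlap in the peaks of these windows. The RefSeq table held 250-base 5' flanks for all 9 genes, and none of them held any of these letters, which 4.20% (AP-1), 3.14% (ATF::CEBP) and 0.968% (STAT3) of all flanks did. A match describes letters and is not a bound site, and consensus letters miss variants of a motif.

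The wider pathway was accessible at its promoters in both lines. All 44 further genes of RAS, RAF, ERK, PI3K and AKT signalling had a peak at their own promoter in every library of each line, as did 69.3% of protein-coding genes in MM.1S and 66.6% in RPMI8226. They included relatives of the exceptions, the receptor genes FGFR1, FGFR2 and FGFR4 and the feedback inhibitor genes SPRY1, SPRY4, SPRED1 and SPRED2. The pathway list does not hold every member of these families. The windows of the 44 genes held a median of 8 peaks in MM.1S (3 to 37) and 9 in RPMI8226 (3 to 23). Medians were 12 and 9 for the 9 genes, and 6 and 7 over all protein-coding genes. Of the distal peaks of the 44 genes, 125 of 199 were shared in MM.1S (62.8%; list 60.0%) and 133 of 216 in RPMI8226 (61.6%; list 53.7%).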

How the data were processed

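Omni-ATAC was performed on 14 samples of MM.1S and RPMI8226, grouped by the line and condition in their titles. Per the submitters' notes and the study's methods, the authors aligned reads to hg38 with Bowtie2, called peaks per library with MACS3, and kept peaks found in at least 3 libraries of a line (versions not given in the sources used here). The deposited lists give a chromosome, start, end and an unlabelled whole number, in a unit other than reads, that the authors did not normalize. The lists hold no read counts. The study's supplement gives library totals, which were not used here, so no precision from depth was computed. Starts were read as 0-based and are printed 1-based.

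Windows were the GENCODE 44 gene plus 50 kb on each side. Promoter peaks overlapped 2500 bp on either side of any annotated start site. The location of a peak (intron, UTR, intergenic) is that of its midpoint. Shares carry Wilson 95% intervals. Percentiles rank a gene among 20007 protein-coding genes. Overlaps and motif counts were tested on simulated data. The 9 genes, the pathway list (44 genes) and the marker lists were chosen with earlier results of these data known. All 9 genes are described, and printed peak centres are distal peaks with a motif and full support, except where stated. Sequences are from hg38 and RefSeq (GRCh38.p14), and some items are not reported here. Windows of 25 and 100 kb, promoters of 1000 and 5000 bp, other overlaps and stricter support were tried. Python 3.11.15, numpy 2.4.6, scipy 1.17.1, pysam 0.24.0 and matplotlib 3.10.9 were used.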

Additional observations from a re-analysis of the deposited data

How the results depend on the processing

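No paired analysis was possible because the lists hold no value for a single library, and for the same reason no replicate could be left out. Among wide peaks, the share called in every library was close to that of the list in both lines. The MM.1S shared share was at the list level over all window peaks. Among the 51 peaks of full support its value was lower than that of the list, with no interval computed. With 25 kb windows, MM.1S had 56 peaks in place of 88, and 9 of the 18 counts per gene and list moved by over 1.5 times. With 100 kb, 5 of 18 did. Limited to peaks called in every library, MM.1S had 51 peaks and its promoter share was 58.8% (list 50.8%). Among such peaks the shared share was 74.5% in MM.1S (list 81.3%) and 87.0% in RPMI8226 (list 74.1%). AP-1 was then found in 1 of 21 MM.1S and 2 of 24 RPMI8226 distal peaks, out of fewer peaks searched. With start sites of protein-coding transcripts only, promoter shares fell to 35.2% in MM.1S (list 25.3%) and 37.2% in RPMI8226 (list 23.2%). The RPMI8226 promoter share was 39.7% with promoters of 1000 bp (list 27.4%) and 62.8% with 5000 bp (list 46.4%). With an overlap of 50% required of both peaks, the RPMI8226 shared share was 64.1% (list 47.2%). Of wide peaks (median of the list or more), 77.6% in MM.1S (list 78.6%) and 85.1% in RPMI8226 (list 86.1%) were called in every library. In whole peaks, where more sequence was searched, ATF::CEBP was found in 4 of 46 MM.1S and 4 of 38 RPMI8226 distal peaks. List shares for the whole-peak and full-support motif searches are not given here, so these counts show no gain or loss of motifs. The count of genes with their own promoter peak, tried under alternatives added after the data were seen, changed in RPMI8226 alone, to 8 at 5000 bp, through FGFR3. Each call of absence is limited by the depth of the libraries, which was not used here.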
